A study of Homo sapiens with 6 samples.

Results

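The H/ACA and Cajal body small RNA genes are the 211 genes of 46427 in the deposited expression table whose symbols begin with SNORA or SCARNA followed by a digit, 182 SNORA genes and 29 SCARNA genes. They were measured by total RNA-seq in 6 libraries, with 1 control culture and 1 si-MALAT1 culture from each of 3 non-small cell lung cancer (NSCLC) cell lines, H460 (from a large cell carcinoma), H1299 (from a lymph node metastasis), and A549 (from a lung adenocarcinoma). si-MALAT1 cells were transfected with an siRNA against MALAT1, an abundant nuclear long noncoding RNA (lncRNA), using Lipofectamine RNAiMAX. The controls are non-treated according to the labels, whereas the methods speak of negative controls as well as si-Control cells, so an effect of transfection and an effect of the knockdown cannot be told apart here. Each line is 1 established line with 1 library per condition, the cultures carry no other stated agent or allele, and the comparisons ask how these small RNAs stood after MALAT1 knockdown and between the lines.

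H/ACA small nucleolar RNAs (snoRNAs) fold into hairpins joined by a hinge, the H box, and end in an ACA box just before the 3′ end. Bound to dyskerin (DKC1), NHP2, NOP10, and GAR1, most of them guide the conversion of uridine to pseudouridine in ribosomal RNA, while Cajal body RNAs (scaRNAs) guide the modification of spliceosomal RNAs and can carry H/ACA boxes, C/D boxes, or both. Most human members have no promoter of their own and are cut out of introns of host genes, many of which encode ribosomal proteins, translation factors, or noncoding SNHG transcripts.

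The annotation placed 166 of the 211 genes inside an intron of a host gene on the same strand, 23 over a host's exon, and 22 in no host, and the hosts came to 153 genes. Where several genes spanned a member, the shortest was taken as its host. Annotated lengths ran from 86 to 421 bases, with a median of 134 for SNORA genes and 148 for SCARNA genes. In the hg38 genome, 154 of 182 SNORA genes (84.6%) had the letters ACA exactly 3 bases before the annotated end, against 18 of 29 SCARNA genes (62.1%) and 5 of 357 C/D box SNORD genes (1.4%) read in the same way. The letters ANANNA, the H box pattern, also lay in the central part of 144 SNORA genes (79.1%), 17 SCARNA genes (58.6%), and 0 SNORD genes with the ACA. The search used the transcribed strand, and a match in letters is a description of the sequence, not of a working box. The letters TGAG, found in the Cajal body box, lay anywhere in 22 SCARNA genes (75.9%), 80 SNORA genes (44.0%), and 301 SNORD genes (84.3%), so that the word alone did not set the SCARNA genes apart.

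The 11 sequences below were read from hg38 at the annotated positions and are written 5′ to 3′ on the transcribed strand, with the ANANNA word nearest the middle and the ACA before the end in capitals where they were found. SNORA73A (chr1:28507365-28507571, plus strand) and SNORA73B (chr1:28508558-28508762, plus strand) are shown because they held more reads than any other SNORA gene. They lie in introns of the lncRNA gene SNHG3, differ at 14 positions, and are 93.2% identical, so that reads could be split between them.
SNORA73A: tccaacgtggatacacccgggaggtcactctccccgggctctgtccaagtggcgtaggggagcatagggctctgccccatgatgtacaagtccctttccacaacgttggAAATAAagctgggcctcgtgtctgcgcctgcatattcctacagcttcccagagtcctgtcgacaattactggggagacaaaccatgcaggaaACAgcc
SNORA73B: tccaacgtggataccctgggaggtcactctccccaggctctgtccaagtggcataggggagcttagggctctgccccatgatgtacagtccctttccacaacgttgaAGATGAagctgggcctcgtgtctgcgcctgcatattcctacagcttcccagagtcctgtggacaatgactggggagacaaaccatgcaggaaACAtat
Of the 6 members inside TAF1D, the host with the most members, 5 are shown because their differences after si-MALAT1 were unlike one another. They lie in introns on the minus strand, SNORA1 at chr11:93732004-93732133, SNORA8 at chr11:93732361-93732499, SNORA25 at chr11:93730513-93730646, SNORA32 at chr11:93730979-93731099, and SNORA40 at chr11:93735110-93735236. SNORA25 and SNORA40 have no ACA at 3 bases from their annotated ends.
SNORA1: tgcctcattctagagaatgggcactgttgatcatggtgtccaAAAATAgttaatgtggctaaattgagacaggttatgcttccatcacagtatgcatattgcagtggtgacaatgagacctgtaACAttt
SNORA8: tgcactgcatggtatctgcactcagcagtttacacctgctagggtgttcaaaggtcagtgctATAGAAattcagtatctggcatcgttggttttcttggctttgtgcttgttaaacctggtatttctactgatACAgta
SNORA25: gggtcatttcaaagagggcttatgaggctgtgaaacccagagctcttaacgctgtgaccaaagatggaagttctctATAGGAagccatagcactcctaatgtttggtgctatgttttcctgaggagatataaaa
SNORA32: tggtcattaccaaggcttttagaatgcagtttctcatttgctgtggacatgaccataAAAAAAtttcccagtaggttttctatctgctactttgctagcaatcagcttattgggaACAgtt
SNORA40: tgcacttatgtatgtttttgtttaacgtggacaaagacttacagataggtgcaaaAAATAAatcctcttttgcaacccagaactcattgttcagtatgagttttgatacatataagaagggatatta
SNORA24 (chr4:118279190-118279320, plus strand, intron of SNHG8), SNORA21B (chr17:38851524-38851658, minus strand, intron of the ribosomal protein gene RPL23), and SNORA104 (chr19:14622213-14622351, plus strand, no host gene) are shown as the SNORA genes that differed most clearly between the cell lines. SCARNA13 (chr14:95533355-95533629, minus strand, over an exon of SNHG10) is shown as an example of a long scaRNA, and no ANANNA was found in its central part. It is not typical of the long scaRNAs in these letters. None of the scaRNAs longer than SCARNA13 had the ACA before the end, and all of them except SCARNA5 had an ANANNA in the central part.
SNORA24: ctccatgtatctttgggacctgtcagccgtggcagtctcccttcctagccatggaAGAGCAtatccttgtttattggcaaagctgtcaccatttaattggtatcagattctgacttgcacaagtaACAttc
SNORA21B: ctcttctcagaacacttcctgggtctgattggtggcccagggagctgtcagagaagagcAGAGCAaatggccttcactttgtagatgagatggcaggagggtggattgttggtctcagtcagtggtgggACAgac
SNORA104: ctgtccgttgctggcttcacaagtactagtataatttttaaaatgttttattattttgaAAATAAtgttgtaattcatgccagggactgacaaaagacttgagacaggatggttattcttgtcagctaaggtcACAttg
SCARNA13: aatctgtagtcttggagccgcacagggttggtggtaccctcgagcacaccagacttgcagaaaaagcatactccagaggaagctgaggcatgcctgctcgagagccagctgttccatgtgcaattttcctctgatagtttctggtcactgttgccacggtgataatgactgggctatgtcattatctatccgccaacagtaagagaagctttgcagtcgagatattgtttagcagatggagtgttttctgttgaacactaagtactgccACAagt

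MALAT1 had 231045 read counts in control and 43858 in si-MALAT1 cells of H460, 407551 against 47935 in H1299, and 93747 against 14447 in A549. Its log2 fold changes of -2.32, -2.96, and -2.84 gave the only adjusted p under 0.05 in the paired edgeR test of 19122 genes (adjusted p = 0.0381). Total read counts per library ranged from 42506818 to 68515992. The epithelial keratin genes KRT8 and KRT18 were at 123 TPM (length-scaled transcript abundance of equal sum in every library) or above in all 6 libraries, the leukocyte gene PTPRC had 0 counts in each, and the endothelial gene PECAM1 had at most 8. The epithelial adhesion genes EPCAM and CDH1 were under 1 TPM in H460 and H1299, and CDH1 reached 27.8 and 39.4 TPM in A549.

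Of the 211 small RNA genes, 189 had at least 1 read in any library, 22 SNORA genes had none, and 154 had a read in all 6 libraries. A mean of 20 or more reads was reached by 86, and 117 passed the filter on low counts of the edgeR test, 95 SNORA genes and 22 SCARNA genes. Members took from 0.140% to 0.235% of the reads of a library. SCARNA genes held from 70.5% to 81.9% of those reads, and the 10 members with the most reads held from 83.4% to 90.4%. A few RNAs therefore carried most of the signal, and the median level of the 154 genes was 4.52 TPM.

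SCARNA10, a composite scaRNA with both box types that lies in an intron of NCAPD2, had the highest level. Its TPM were 955 and 992 in control and si-MALAT1 cells of H460, 2680 and 3040 in H1299, with 1320 and 1460 in A549. SNORA73A, needed for early cuts in the precursor of the small-subunit ribosomal RNA, followed at 955 and 912 TPM in H460, 1450 and 968 in H1299, with 666 and 626 in A549. SCARNA7, a C/D box scaRNA in an intron of KPNA4, had a mean of 705 TPM over the 6 libraries. SCARNA2, a scaRNA that lies in no host gene, had a mean of 638 TPM. The composite RNA SCARNA12 in PHB2 had a mean of 524 TPM. SNORA73B and the composite RNA SCARNA5, in an intron of ATG16L1, had nearly equal means of 384 and 383 TPM. SCARNA13, made of H/ACA parts, had a mean of 313 TPM. SCARNA21, an H/ACA scaRNA of 138 bases in CHD3 named here after its values were seen, had a mean of 361 TPM and lay between 337 and 387 TPM in all 6 libraries. Below these, SNORA12 had a mean of 162 TPM, SNORA48 of 120, SNORA104 of 116, SNORA63 of 85.0, SNORA70 of 63.2, and SNORA53 of 25.4. SNORA12 lies in CWF19L1, SNORA48 in the translation factor gene EIF4A1, SNORA63 in EIF4A2, SNORA70 in RPL10, and SNORA53 in SLC25A3. The order of neighbours such as SNORA48 and SNORA104 turned from line to line, since SNORA48 was higher in both H460 libraries and SNORA104 in both A549 libraries.

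**Figure D1:**
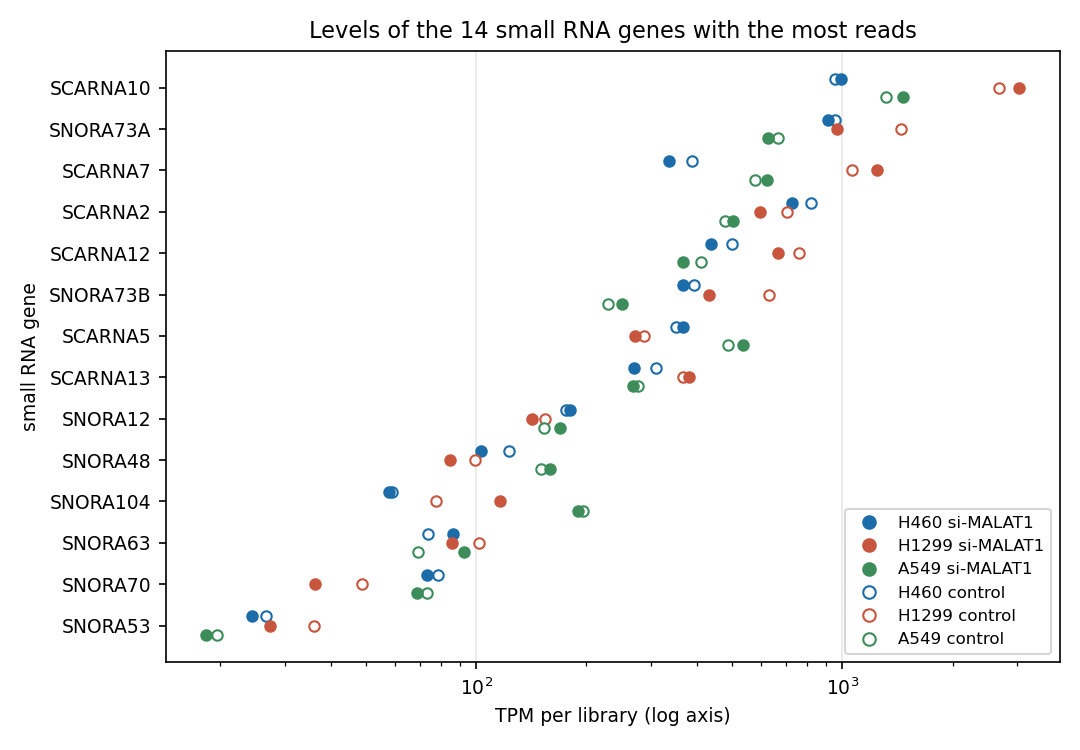
TPM (log axis) of the 14 small RNA genes with the most reads, 8 SNORA and 6 SCARNA, in each library. Open circles are control and filled circles si-MALAT1 libraries, coloured by cell line (1 library each). SCARNA10 lay between 955 and 3040 TPM and SNORA53 between 18.3 and 36.0 TPM.

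Longer members had higher levels. Among genes with a read in all 6 libraries, the 10 members longer than 250 bases, all of them SCARNA genes, had a median of 348 TPM, the 21 members of over 150 and up to 250 bases 6.01 TPM, and the 123 members of 150 bases or less 3.01 TPM. Spearman's rho between length and mean TPM was 0.34 across the 154 genes, which share the libraries and are not independent replicates. SCARNA21, SNORA12, and SNORA48 are short exceptions, with means of 361, 162, and 120 TPM at 138, 147, and 135 bases. The libraries were made by random priming of fragmented total RNA, and a low level of a short RNA and a poor recovery of short RNA cannot be told apart. Of the 211 genes, 29 overlap an exon of another gene on the same strand, 2 overlap one on the other strand, and 22 have a copy at least 95% identical, 48 in all, and their read counts are uncertain.

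**Figure D2:**
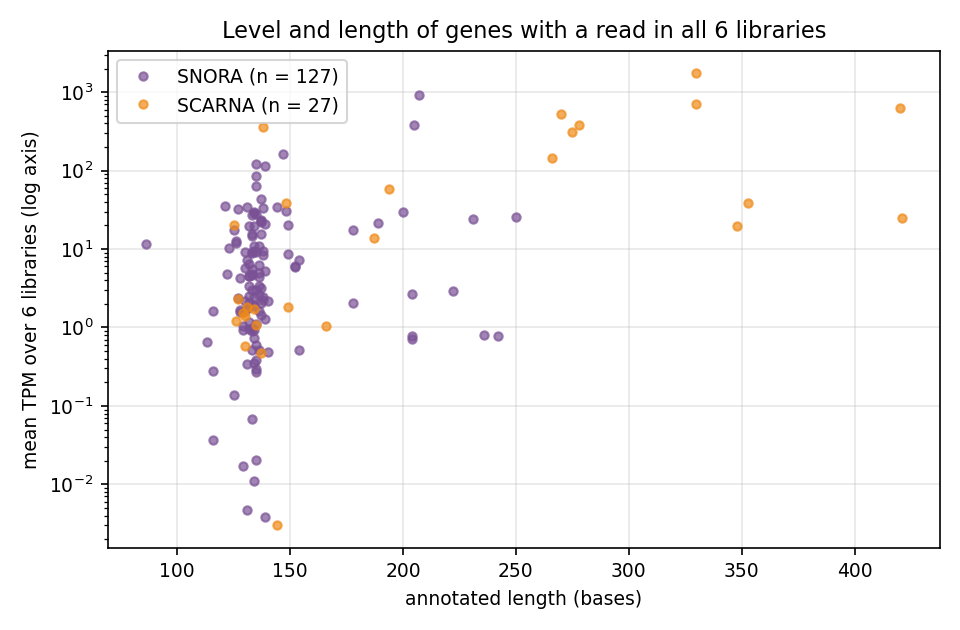
Mean TPM over the 6 libraries (log axis) against annotated length for the 154 small RNA genes with a read in every library, each point 1 gene, 127 SNORA and 27 SCARNA. Points beyond 250 bases are SCARNA genes with a median of 348 TPM, and the cluster at or under 150 bases spans low to high levels around a median of 3.01 TPM.

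No member passed the paired comparison of si-MALAT1 with control, made with the quasi-likelihood test of edgeR, blocked by cell line, with 2 residual degrees of freedom. Of 117 members tested, 0 had an adjusted p under 0.05 (0.00523% of all genes, which was MALAT1), and 0 had an unadjusted p under 0.05, against 2863 of 19122 genes. The smallest adjusted p of a member was 0.345. DESeq2 gave an adjusted p to 35 of its 189 members with reads and to 13117 genes, and called 0 of those 35, where it called 1333 genes (10.2%). The other members, with fewer reads, could not be called by DESeq2. Of the 189, 1 had an unadjusted p under 0.05 there, SCARNA10 (adjusted p = 0.208), also named for its level. Its log2 fold changes were 0.19, 0.12, and 0.16 in the order H460, H1299, A549, a mean of 0.16 ± 0.04 (SD, n = 3 lines), and its edgeR adjusted p was 0.604. Among the other members with many reads, the mean log2 fold change over the lines was -0.16 ± 0.10 for SCARNA12 and -0.04 ± 0.02 for SCARNA13, each with the same sign in the 3 lines.

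The proteins that bind these RNAs and the genes of the Cajal body gave no call in the same test. That test called 1 of 19122 genes (0.00523%), so no call in lists this small is not a sign of unchanged levels. Of the 4 H/ACA core protein genes, 0 were called, with a smallest adjusted p of 0.258. DKC1, the pseudouridine synthase, had 7449 and 6375 read counts in H460, 4271 and 2729 in H1299, with 4029 and 3494 in A549, a mean log2 fold change of -0.34 ± 0.19 (SD, n = 3 lines, edgeR adjusted p = 0.258). It was lower in the si-MALAT1 library of each line, by less than the test could call. Of 8 genes for assembly and 3′ end processing, 0 were called. The smallest adjusted p, 0.0819, was that of RUVBL1, a helicase of the assembly complex. Its log2 fold changes were -0.58, -0.74, and -0.81 in H460, H1299, and A549. DESeq2 gave RUVBL1 an adjusted p of 2.66e-09. Of 8 Cajal body genes, 0 were called, and COIL, whose product coilin marks the body, had log2 fold changes of 0.30, -0.17, and 0.36. TERC, the telomerase RNA, which also ends in an H/ACA domain, had 5598 and 4857 read counts in H460, 10104 and 6557 in H1299, with 1945 and 2528 in A549. Its mean log2 fold change was -0.13 ± 0.36 (SD, n = 3 lines, edgeR adjusted p = 0.719), and that of TERT, the telomerase reverse transcriptase, was -0.85 ± 0.77 (adjusted p = 0.312).

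Within the cell lines, the members stood lower in the si-MALAT1 library of H1299 and near 0 in the others. For the 154 members, the median log2 fold change on the log2(scaled count + 1) scale was 0.04 in H460, -0.29 in H1299, and 0.03 in A549, where the medians of 17834 genes were 0.02, 0.02, and 0.01. Members lower in the si-MALAT1 library numbered 64, 104, and 75 of 154, against 8581, 8578, and 8789 of 17834 genes. With 1 library per line and condition these differences have no replicate check. The H1299 median was -0.17 with a pseudocount of 10 and -0.16 on the log2(TPM + 1) scale, both of which shrink the differences of genes with low values. At a difference of 1.5-fold or more in H1299, 43 members were lower (27.9%, where 11.4% of all genes were) and 12 were higher (7.79%, where 11.7% of all genes were). In H460, 17 members were lower (11.0%, all genes 10.3%) and 15 were higher (9.74%, all genes 9.5%). In A549, 16 members were lower (10.4%, all genes 11.4%) and 19 were higher (12.3%, all genes 11.5%). The share lower in H1299 was more than that of all genes, and the shares in H460 and A549 were close to it.

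By class, 88 of 127 SNORA genes were lower in the si-MALAT1 library of H1299, with a median log2 fold change of -0.33, and 16 of 27 SCARNA genes, with a median of -0.07. The C/D box SNORD genes, which guide 2′-O-methylation of ribosomal RNA and are no members, stood likewise, with 132 of 181 lower and a median of -0.35. Other genes of 200 bases or less stood at a median of 0.06, with 237 of 529 lower. Most of these had few reads, with a median of 4.33 for their mean read count. Among members with a mean of 20 or more reads, 58 of 71 SNORA genes and 8 of 15 SCARNA genes were lower in H1299. At the same limit, 73 of 85 SNORD genes were lower there. So were 41 of 75 other genes of 200 bases or less, with a median of -0.04. In H460 the medians were 0.06 for SNORA and -0.04 for SCARNA genes, and in A549 they were -0.03 and 0.09.

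The summed SNORA level was 3600 TPM in the H1299 control library and 2728 TPM in its si-MALAT1 library, 3033 and 2866 in H460, and 2490 and 2529 in A549. Much of the step in H1299 was in the SNORA73 pair, which summed to 2078 and 1400 TPM there, while all other SNORA genes summed to 1522 and 1328 TPM. The SCARNA genes together were at 6607 and 6953 TPM in the same libraries. SNORA73A had 17287 read counts in the H1299 control library and 10091 in the si-MALAT1 library (log2 fold change -0.65, 95% counting interval -0.68 to -0.61). SNORA73B had 7453 and 4456 (-0.61, -0.66 to -0.56). Both were at 0.07 and 0.04 in H460 and at -0.08 and 0.14 in A549, so that H1299 alone of the 3 lines had a step of this size. The intervals are exact Clopper-Pearson intervals for how a gene's reads divided over the control and si-MALAT1 library and cover counting error only.

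Whether the response of a line differed from that of the other 2 was tested in edgeR with an added term, which left 1 residual degree of freedom. No member was called for H460, H1299, or A549 (0% of all genes in each). At an unadjusted p under 0.05 there were 0, 4, and 0 members, against 1199, 1518, and 602 of 19122 genes. The 4 in H1299, named for this p, were SNORA73B (adjusted p = 0.556), SNORA73A (0.575), SNORA79B (0.599), and SNORA6 (0.629). Each had a lower log2 fold change in H1299 than in the other lines. SNORA6, in an intron of the ribosomal protein gene RPSA, had 57 and 15 read counts in H1299, 76 and 80 in H460, and 63 and 80 in A549. SNORA79B, in CCNB1IP1, had 244 and 133 in H1299, 284 and 358 in H460, and 111 and 241 in A549. The H1299 si-MALAT1 library had the fewest reads of the 6 for SNORA6, while for SNORA79B the A549 control library, the one with the smallest total, had fewer.

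**Figure D3:**
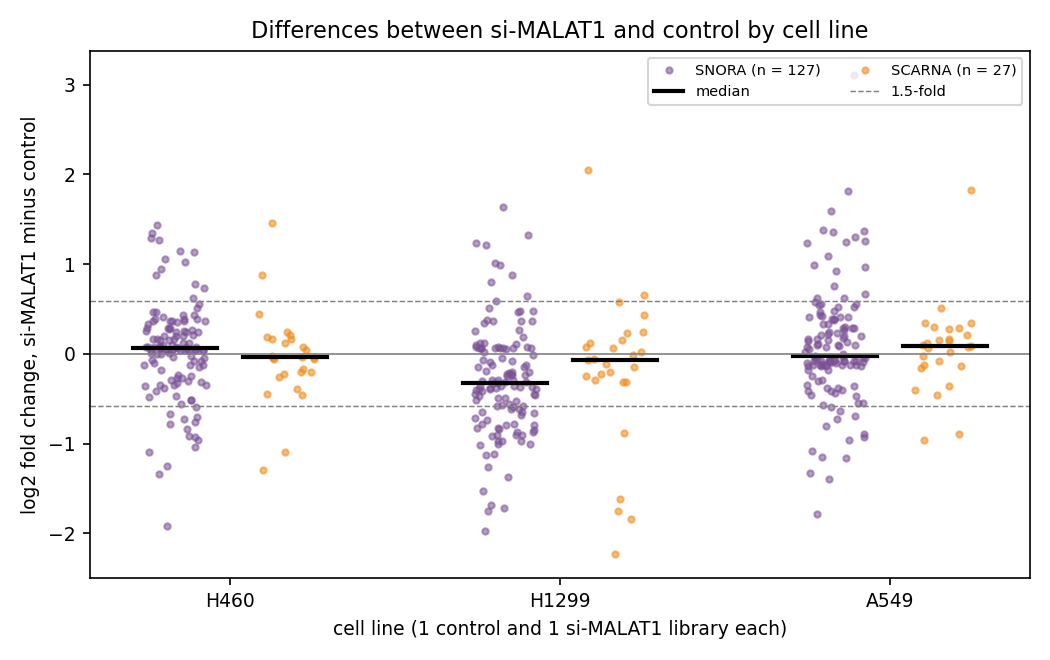
Log2 fold change of each small RNA gene with a read in all 6 libraries, si-MALAT1 minus control, in each cell line (127 SNORA and 27 SCARNA genes, black bars at the medians, dashed lines at 1.5-fold). In H1299 the SNORA median was -0.33 and 88 of 127 genes were below 0, while the other medians lay between -0.07 and 0.09. With 1 library per line and condition there is no replicate error.

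A difference of 1.5-fold in the same direction in the 3 lines was found for 2 members (1.19% of all genes) upwards and 0 members (1.28% of all genes) downwards. Both members had few reads. SNORA38B, in NOL11, had 3 and 7 read counts in H460, 6 and 12 in H1299, with 3 and 9 in A549. SNORA36B, in RAB3GAP2, had 1 and 4, 1 and 3, and 1 and 6, and overlaps the miRNA gene MIR664A on the same strand. All 6 counting intervals of both genes included 0, so that these differences were not detectable at this depth.

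The members were also grouped by the kind of host gene. The median log2 fold change in H1299 was -0.46 for 27 members in lncRNA genes (21 lower), -0.49 for 17 members in ribosomal protein genes (16 lower), and -0.20 for 98 members in other coding genes (60 lower). The host genes themselves had medians of -0.53 (17 lncRNA genes), -0.14 (13 ribosomal protein genes), and -0.04 (79 other coding genes). In H460 the 3 groups of members stood at 0.08, -0.02, and 0.03, and in A549 at 0.02, 0.05, and -0.02. The differences between the groups of hosts were not tested, since members of 1 host share it.

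Over the 81 members with a mean of 20 or more reads and a host with reads, in 60 hosts, member and host differed in the same direction for 29 of 81 in H460, 58 of 81 in H1299, and 40 of 81 in A549. Spearman's rho between the log2 fold changes of member and host was -0.31 in H460, 0.13 in H1299, and 0.22 in A549. In H1299 both medians were below 0, so the count of shared directions there does not show that member and host moved together. In H1299 the median member stood at -0.36 and the median host at -0.21, and in A549 they stood at 0.10 and -0.08. SNHG3, taken as the host of the SNORA73 pair, had 5744 and 2426 read counts in H1299 (log2 fold change -1.11), 3461 and 2523 in A549 (-0.60), and 8536 and 7484 in H460 (-0.11). In A549 SNHG3 was thus lower and the pair near 0. The gene RCC1 also spans the pair on the same strand, and its counts are not given here. NCAPD2 stood at -0.45 in H1299 beside SCARNA10 at 0.12, and SNHG10 at -0.70 beside SCARNA13 at -0.01. Host and small RNA stood apart in these pairs. EIF4A1 had -0.15, -0.25, and -0.35 in H460, H1299, and A549 beside -0.12, -0.29, and 0.09 for SNORA48.

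Members of 1 host differed from one another. TAF1D, which encodes a subunit of a transcription factor of RNA polymerase I, had log2 fold changes of -0.27, -0.33, and -0.51 in H460, H1299, and A549 and holds 6 members. SNORA8 had 200 and 167 read counts in H460, 156 and 72 in H1299, with 158 and 108 in A549. SNORA18 had 169 and 154, 150 and 68, and 152 and 79, and SNORA40 had 306 and 275, 242 and 112, and 172 and 146. These 3 were lower in each si-MALAT1 library, with log2 fold changes in H1299 of -0.97 for SNORA8, -1.0 for SNORA18, and -0.97 for SNORA40. In H460 the differences were small, and each 95% counting interval included 0. They were -0.18 (-0.48 to 0.13) for SNORA8, -0.05 (-0.38 to 0.27) for SNORA18, and -0.07 (-0.31 to 0.17) for SNORA40. SNORA25 had 141 and 124 read counts in H460, 196 and 233 in H1299, with 61 and 62 in A549, and SNORA32 had 211 and 306, 320 and 377, and 77 and 78. Both were higher in the si-MALAT1 library of H1299, with log2 fold changes of 0.38 (95% counting interval 0.10 to 0.66) and 0.37 (0.15 to 0.59). SNORA1 had few reads, with a log2 fold change of -0.79 (-1.76 to 0.06) in H1299. SNORA8 and SNORA18 had the smallest unadjusted p of the members in the paired edgeR test, each with an adjusted p of 0.345. SNORA18 overlaps an exon of TAF1D on the same strand, and SNORA40 has a copy of 96.1% identity elsewhere, SNORA40B, so the reads of both are uncertain.

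EIF4A2, another translation factor gene, had log2 fold changes of -0.10, -0.21, and -0.51 and holds 4 members. SNORA63 had 583 and 706 read counts in H460, 792 and 585 in H1299, with 328 and 489 in A549, so that it was higher in the si-MALAT1 library of H460 and A549 and lower in that of H1299. SNORA4 stood at -0.27, -0.37, and -0.11, SNORA81 at 0.12, -0.12, and 0.21, and SNORA63B at 0.01, 0.37, and -0.12. The counting intervals of SNORA81 and SNORA63B included 0 in each line. SNHG17 had log2 fold changes of -0.34, -0.39, and -0.49 and holds the 4 SNORA71 genes. SNORA71A stood at 0.10, -0.46, and 0.02, SNORA71C at 0.36, -0.58, and 0.48, and SNORA71D at 0.24, -0.21, and -0.03. The log2 fold change of each was thus lowest in H1299. The counting intervals of SNORA71C and SNORA71D included 0 in each line. SNORA71B had from 4 to 37 reads per library.

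**Figure D4:**
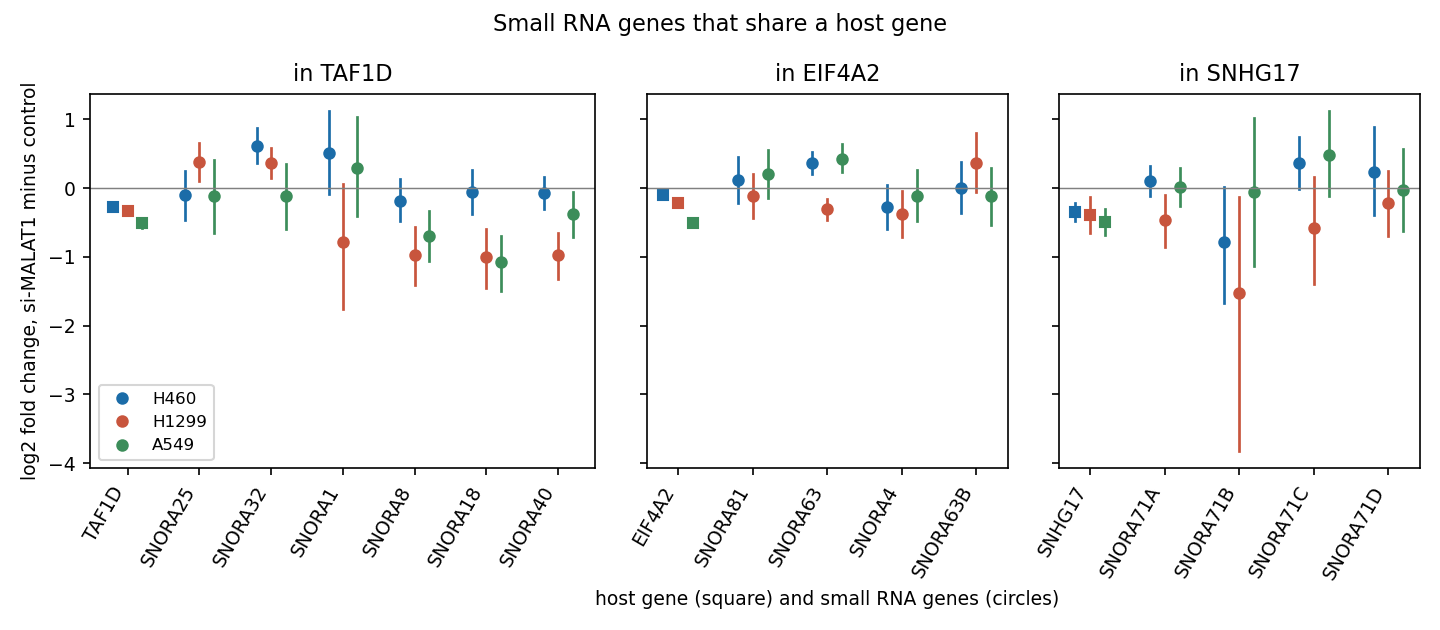
Log2 fold change (si-MALAT1 minus control) in H460, H1299, and A549 of 3 host genes (squares) and the small RNA genes inside them (circles), with 95% counting intervals (vertical lines). In TAF1D, the points of SNORA25 and SNORA32 in H1299 lie at 0.38 and 0.37, and those of SNORA8, SNORA18, and SNORA40 between -1.0 and -0.97.

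Between the cell lines, 36 of 117 members had an adjusted p under 0.05 in edgeR's test of the line term (30.8%, where 64.3% of all genes did), 25 of 95 SNORA genes (26.3%) and 11 of 22 SCARNA genes (50.0%). The share moved with the read count. Of 48 members with a mean of at least 100 reads 28 were called (58.3%, all such genes 74.1%), and of 69 members under 100 reads 8 were called (11.6%, all such genes 37.8%). Comparing H460 with A549 alone, without the H1299 libraries, called 17 of 115 members (44.3% of all genes). On the scale of the fit, 18 of the 25 called SNORA genes were highest in H460 and 15 were lowest in H1299. On the TPM scale those numbers were 14 and 14, since TPM placed the median gene 0.35 higher in H1299 and 0.29 higher in A549 against H460, on a log2 scale, than the fit did. Of the 11 called SCARNA genes, 5 were highest in H1299 on either scale.

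The 6 members with the smallest adjusted p were SCARNA10, SCARNA7, SNORA24, SNORA104, SNORA21B, and SCARNA2, and their values below are mean TPM ± SD over the control and si-MALAT1 library of a line (n = 2) with log2 differences and adjusted p of the edgeR fit. SCARNA10 was at 974 ± 26.1 TPM in H460, 2860 ± 255 in H1299, and 1390 ± 99.6 in A549. It was 1.2 higher in H1299 than in H460 (adjusted p over the 3 lines = 0.000805), and the libraries of the 3 lines did not overlap. SCARNA7 was at 362 ± 35.6, 1150 ± 124, and 601 ± 32.2 TPM, with the same order of lines and a log2 difference of 1.32 between H1299 and H460 (adjusted p = 0.000919). SCARNA2 went the other way, at 774 ± 63.2, 649 ± 77.9, and 490 ± 16.8 TPM, and was lowest in A549 by 0.95 against H460 (adjusted p = 0.00521). Its H1299 control library at 704 TPM lay just under the H460 si-MALAT1 library at 730 TPM, while on the scale of the fit H1299 stood 0.60 below H460 and 0.34 above A549.

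SNORA24 was at 81.8 and 57.3 TPM in control and si-MALAT1 cells of H460, 22.2 and 12.8 in H1299, with 16.4 and 17.5 in A549. H460 stood above both other lines, by 2.34 against H1299 and 2.28 against A549 (adjusted p = 0.00116), and those 2 lines overlapped. Its host SNHG8 had 8125 and 6707 read counts in H460, 2494 and 1577 in H1299, with 1493 and 1621 in A549, also highest in H460. SNORA104 was at 59.0 and 57.6 TPM in H460, 77.5 and 116 in H1299, with 196 and 190 in A549, and the lines did not overlap (adjusted p = 0.00206). It was 1.44 higher in A549 than in H460. It lies in no host but overlaps the pseudogene ITGB1P1 on the other strand. Its reads may be shared if counting did not use the strand. SNORA104 is also 88.5% identical to SNORA86, which lies over an exon of ITGB1. The unscaled read counts of ITGB1 were 70869 and 64274 in H460, 93492 and 116751 in H1299, with 123818 and 124290 in A549. Whether reads of ITGB1 were counted for SNORA104 was not tested, so its read counts are uncertain. SNORA21B was at 48.4 and 40.3 TPM in H460, 11.1 and 9.26 in H1299, with 25.7 and 33.9 in A549, lowest in H1299 by 2.46 against H460 (adjusted p = 0.00219). Its host RPL23 had 41511 and 39183 read counts in H460, 28314 and 25227 in H1299, with 34565 and 42104 in A549, with the lowest counts in H1299 as well. These counts are not scaled for library size. The highest of them was in an A549 library, whereas SNORA21B was highest in H460.

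**Figure D5:**
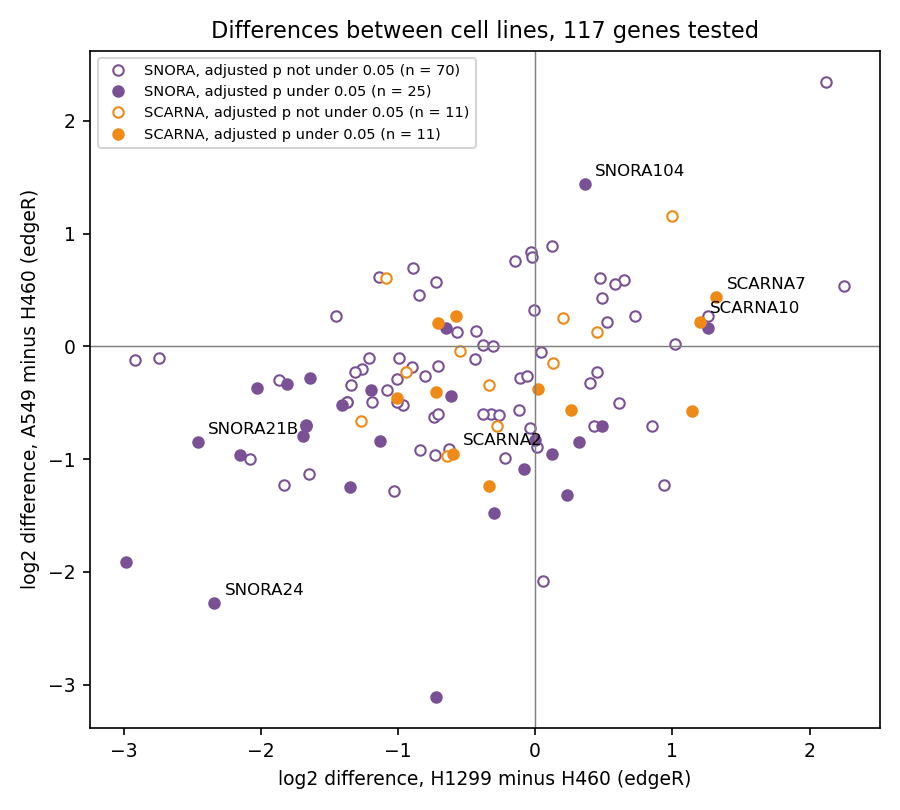
Log2 differences of the edgeR fit between cell lines for the 117 members tested, H1299 minus H460 on the x axis and A549 minus H460 on the y axis. Filled points had an adjusted p under 0.05 (25 SNORA and 11 SCARNA genes) and the 6 with the smallest adjusted p are named, with SNORA24 and SNORA21B at the lower left and SCARNA10 and SCARNA7 at the right.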

How the data were processed

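Total RNA of 6 libraries was sequenced after removal of ribosomal RNA. Reads were trimmed and mapped to hg38 by the authors with HISAT 2.1.0, and gene abundances were estimated with StringTie (2.1.3b in the paper's methods and 1.3.4b in the submitters' processing notes). Whether counting used the strand is not given in the sources used here. The deposited read counts are whole numbers and not normalized. The deposited TPM are scaled by the authors for length and depth, and the deposited FPKM were not needed. Another 18 columns of the table belong to samples that are not of this series and were not used. Gene positions were read from the deposited annotation, and sequences from hg38.

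Samples were grouped by the labels, and the pairing of control and si-MALAT1 libraries comes from the shared cell line. The paired test and the test between lines used edgeR 4.0.16 (quasi-likelihood, TMM, filterByExpr, cell line as a block, Benjamini-Hochberg adjustment over all genes, adjusted p under 0.05), with DESeq2 1.42.0 as the alternative. Both tests set an effect against the spread left after cell line and treatment. No line had replicate cultures of a condition, so variation between such cultures was not measured. Within a line, log2 fold changes were taken on RLE-scaled counts plus 1 for genes with a read in all 6 libraries, with exact Clopper-Pearson 95% intervals that cover counting error only. TPM levels are means ± SD.

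Named are the 8 SNORA and 6 SCARNA genes with the most reads, members called in the paired test or 1.5-fold in the same direction in 3 lines, the 6 with the smallest adjusted p between lines, fixed lists, and host genes. SCARNA21, SNORA6, SNORA79B, and the members of hosts with at least 4 members were added after the values were seen, as were the test of 1 line against the others, the comparison without H1299, and the counts without overlapping genes. Members and lists were chosen with earlier results of these data known. A further marker gene and a further sequence are not reported here. The scripts were tested on simulated data. R 4.3.3 and Python 3.11.15 were used.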

Additional observations from a re-analysis of the deposited data

Results flagged for a closer look

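Of 154 small RNA genes with a read in all 6 libraries, 20 had a log2 fold change whose counting interval lay above 0 in one cell line and below 0 in another. The same count over all genes is not given here, so 20 of 154 is not shown to be particular to these genes. Of the 20, the 8 that are named in the text follow. With 1 library per line and condition, the difference between 2 lines was not tested. In edgeR's test of H1299 against the other 2 lines, the adjusted p of these genes ranged from 0.556 to 0.931. SNORA73A stood 0.72 higher in H460 than in H1299 and 0.15 higher in H460 than in A549. SNORA73B stood 0.75 higher in A549 than in H1299. SNORA79B, in CCNB1IP1, stood higher than in H1299 by 1.15 in H460 and by 1.71 in A549. SNORA63, in EIF4A2, stood higher than in H1299 by 0.67 in H460 and by 0.74 in A549. SNORA12, in CWF19L1, stood higher than in H1299 by 0.35 in H460 and by 0.34 in A549. SCARNA5, in ATG16L1, stood higher than in H1299 by 0.36 in H460 and by 0.30 in A549. SCARNA2 stood 0.39 higher in A549 than in H1299. SCARNA7 was the other way about, higher than in H460 by 0.21 in H1299 and by 0.18 in A549. All values are differences between log2 fold changes.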

How the results depend on the processing

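The paired test called 0 members under each alternative, namely DESeq2, RLE scaling, no filter on low counts, no replicate block for the cell line (0), and without each line in turn, with 0 to 3 members at an unadjusted p under 0.05. Over all genes, DESeq2 called 1333 of the 13117 genes with an adjusted p (35 members among them), the test without H460 called 163 of 20386, and the other alternatives called 0 or 1. The 36 members called between lines became 34 of 135 with DESeq2 (all genes 59.7%), 35 of 117 with RLE scaling (64.3%), and 28 of 189 with no filter (39.5%). Leaving out 1 library gave from 17 to 32, where 48.5% to 60.6% of all genes were called. Without the A549 control library the count was 17, without the A549 si-MALAT1 library 19, and without the H1299 si-MALAT1 library 20, and a line left with 1 library is assumed to vary like the others. Comparing H460 and A549 alone gave 17. The cause was not tested, though fewer libraries leave fewer residual degrees of freedom. The 2 members that were 1.5-fold higher in 3 lines became 0 with a pseudocount of 10, 0 on the log2(TPM + 1) scale, 0 at a mean of 20 or more reads, and 1 without members that overlap an exon or have a near-identical copy. The 0 members that were lower became 1, SNORA110, with no filter, since it admits genes with a count of 0. The H1299 median of -0.29 became -0.17 with a pseudocount of 10 and -0.16 on the log2(TPM + 1) scale, and the H460 median of 0.04 became -0.05 on the latter. H1299 kept the lowest median of the 3 lines under every setting, whereas the order of H460 and A549 varied. On the TPM scale A549 stood at 0.02, above H460. All genes together had TPM-scale medians of -0.066 (H460), 0.039 (H1299), and 0.002 (A549), so the H460 value of -0.05 was close to that of all genes. Depth limits the many members under 20 reads.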
